A study of Homo sapiens with 10 samples.

Results

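The DNAJ genes encode the human HSP40 family of co-chaperones, and they were examined in RPE-1 cells, a widely used telomerase-immortalized human line derived from the retinal pigment epithelium. Members were taken as every row of the count table whose symbol is DNAJ, a class letter (A, B or C) and a number, which gave 41 genes out of 28380, with 4 in class A, 11 in class B and 26 in class C. The control cells received the vehicle DMSO for 4 h, and the treated cells received 25 µM sulforaphane (SFN), an isothiocyanate from cruciferous vegetables, for the same time. Each group held 5 replicates of this single line, and the labels do not say whether they came from separate cultures, so that the p-values measure the spread between these samples, which may be technical. The libraries were of the 3′-end type and the deposited values were read counts per gene, of which 13378 genes, 36 of the DNAJ genes among them, had enough counts to be tested.

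Every DNAJ protein carries a J domain, which docks on an HSP70 chaperone and stimulates it to hydrolyse ATP and hold on to a client protein. Class A and class B members bind unfolded clients themselves and hand them to HSP70, whereas class C members share little beyond the J domain and bring HSP70 to particular sites such as the ribosome, the mitochondrial import motor, clathrin-coated vesicles or the ER membrane. Several members, DNAJB1 foremost, are classical targets of the heat shock factor HSF1, and several ER members are targets of the unfolded protein response.

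Total counts ranged from 15689294 to 20666692 in DMSO and from 12375860 to 17308706 in SFN. DMSO replicate 1 stood apart, with a mean Spearman correlation across genes of 0.935 with the other DMSO libraries, against means of 0.979 to 0.982 for those libraries. The latter means take in each library's correlation with DMSO replicate 1. The counts of DNAJ genes below are given also without that replicate. Of the 8 markers chosen for retinal pigment epithelium, TYR was not analysed here and RPE65, TTR and RLBP1 were at or near 0, with at most 4 counts in any library, while BEST1, PMEL, MITF and OTX2 were detected. The summed level of these markers was 62.0 to 103.9 CPM, counts scaled to a common library size, in DMSO and 55.1 to 136.3 CPM in SFN. Of the detected ones, MITF (50.8 ± 4.95 and 23.4 ± 2.78 CPM in DMSO and SFN) and OTX2 (14.0 ± 2.14 and 9.01 ± 0.286 CPM) were lower in SFN past the threshold used below, while BEST1 was at 18.8 ± 13.7 and 42.4 ± 36.7 CPM and PMEL had a log2 fold change of 0.14, neither past it. When DMSO replicate 1 was left out, BEST1 passed it (log2 fold change 1.68), as did KRT8 (0.37), and the part of these markers in the results on the DNAJ genes was not tested. The epithelial keratins KRT8 and KRT18 summed to 490.1 to 771.3 CPM in DMSO and 510.6 to 856.2 CPM in SFN. Of the 4 markers of blood, endothelial and smooth muscle cells (PTPRC, PECAM1, CD68 and MYH11), none had enough counts to be tested, and they summed to at most 1.93 CPM in any library. In such bulk RNA, fewer cells of a type and less RNA per cell cannot be told apart.

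SFN raised the mRNA of 11 DNAJ genes, 8 of which were DNAJA1 and 7 genes of class B, and lowered that of 4. SFN was compared with DMSO by the quasi-likelihood (QL) F test of edgeR, p-values were adjusted by the Benjamini-Hochberg method across every gene tested, and the threshold was 0.05. By this test, 11 of the 36 DNAJ genes were increased in SFN (30.6%) and 4 were decreased (11.1%). Among all genes tested, 9.07% were increased and 13.9% decreased, so that the share of increased genes was above that of all genes and the share of decreased genes was near it. When libraries were scaled by their total count alone, 27.5% of the calls over all genes were increases, against 39.5% in the main comparison, and 9 DNAJ genes were increased and 4 decreased. On the log2 scale, the fold change (log2FC) had a median of 0.12 over the tested members and -0.03 over all genes tested. In 8 members every SFN library lay above every DMSO library (22.2%, against 8.78% of all genes), and in 3 every SFN library lay below (8.33%, against 11.1%). Without DMSO replicate 1, 15 members were increased (41.7%) and 6 decreased (16.7%), where 22.5% of all genes were increased and 23.5% decreased. DNAJ genes together took 0.354 to 0.384% of all counts in the DMSO libraries and 0.511 to 0.554% in the SFN libraries. Leaving out DNAJA1, the member with the most counts, these shares were 0.303 to 0.328% and 0.370 to 0.403%, so that the groups were still apart.

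**Figure D1:**
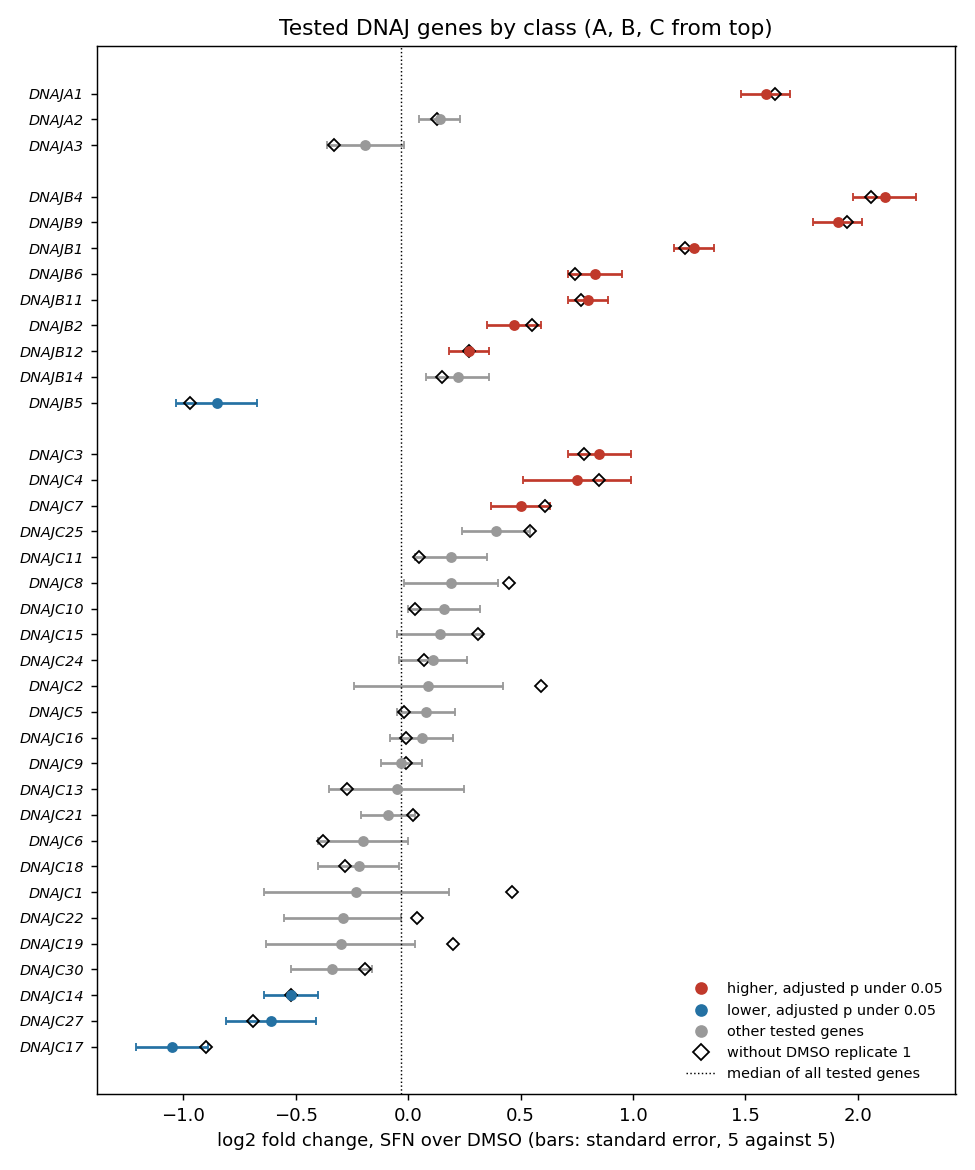
Log2FC of SFN over DMSO for the 36 tested DNAJ genes, one row per gene, grouped into classes A, B and C from the top, with bars for the standard error (SE). Class B genes sit mostly to the right of 0, from -0.85 to 2.12, while class C genes spread on both sides of it, from -1.05 to 0.85.

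The increases lay mostly in class B. In class A, 1 of 3 tested genes was increased and 0 decreased (0 decreased also at an unadjusted p under 0.05, by DESeq2 and by limma-voom), with a median log2FC of 0.14 (0.13 without DMSO replicate 1, where 1 gene was increased and 1 decreased). In class B, 7 of 9 were increased (77.8%) and 1 decreased, with a median of 0.80 (0.74 without DMSO replicate 1, with the same counts). In class C, 3 of 24 were increased and 3 decreased (12.5% each), and the median was 0.02. These shares are near those of all genes tested (9.07% increased and 13.9% decreased), as is that of the 1 decrease in class B (11.1%). Without DMSO replicate 1, 7 class C genes were increased (29.2%) and 4 decreased (16.7%), with a median of 0.04. In that comparison 22.5% of all genes were increased and 23.5% decreased. The class A and class B counts without that library have the same background. The difference between classes was not tested.

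The 5′ flanking sequences of 5 of the 11 cytosolic members are shown, chosen after the search as the 4 increased genes that hold a pair of units of the heat shock element and a decreased gene that holds none. This element, the motif bound by HSF1, is built of GAA units in alternating orientation, and the display does not tie it to the direction of change, since the increased cytosolic members DNAJB2 and DNAJC7 held no such pair. The sequences are RefSeq promoters of build GRCh38.p14, written 5′ to 3′ along the gene's strand from 250 bases before the RefSeq start to 30 bases after it. Capitals mark each match to GAANNTTC or TTCNNGAA, which are units head to head and tail to tail, and a run of 13 capitals is a match to the element of 3 units, GAANNTTCNNGAA, which holds both. They come from chr9:33025023-33025302 (plus strand) for DNAJA1, chr19:14518368-14518647 (minus strand) for DNAJB1, chr1:78004689-78004968 (plus strand) for DNAJB4 and chr7:157336754-157337033 (plus strand) for DNAJB6, with chr9:34990040-34990319 (plus strand) for DNAJB5, a close relative of DNAJB1 that fell, as a contrast.
DNAJA1: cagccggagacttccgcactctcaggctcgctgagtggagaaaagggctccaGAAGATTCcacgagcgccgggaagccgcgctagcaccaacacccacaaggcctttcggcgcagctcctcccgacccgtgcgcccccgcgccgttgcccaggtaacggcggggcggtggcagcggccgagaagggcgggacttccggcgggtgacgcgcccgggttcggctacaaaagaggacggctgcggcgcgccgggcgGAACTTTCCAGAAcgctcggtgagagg
DNAJB1: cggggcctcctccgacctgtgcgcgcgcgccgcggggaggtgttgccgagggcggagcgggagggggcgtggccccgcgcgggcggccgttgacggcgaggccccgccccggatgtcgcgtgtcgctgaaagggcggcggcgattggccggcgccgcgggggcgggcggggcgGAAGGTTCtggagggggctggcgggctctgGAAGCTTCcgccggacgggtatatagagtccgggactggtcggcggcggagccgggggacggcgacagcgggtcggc
DNAJB4: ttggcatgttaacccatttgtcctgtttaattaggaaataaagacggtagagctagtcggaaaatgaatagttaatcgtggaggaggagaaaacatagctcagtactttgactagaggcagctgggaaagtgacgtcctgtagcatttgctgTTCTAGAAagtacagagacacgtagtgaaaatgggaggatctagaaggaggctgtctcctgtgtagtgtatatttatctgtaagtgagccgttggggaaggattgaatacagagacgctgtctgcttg
DNAJB6: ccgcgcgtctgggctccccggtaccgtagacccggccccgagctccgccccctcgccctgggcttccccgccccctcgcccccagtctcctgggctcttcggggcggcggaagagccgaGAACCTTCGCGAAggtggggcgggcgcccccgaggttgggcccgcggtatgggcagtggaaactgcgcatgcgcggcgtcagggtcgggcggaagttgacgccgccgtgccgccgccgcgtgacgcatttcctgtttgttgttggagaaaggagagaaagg
DNAJB5: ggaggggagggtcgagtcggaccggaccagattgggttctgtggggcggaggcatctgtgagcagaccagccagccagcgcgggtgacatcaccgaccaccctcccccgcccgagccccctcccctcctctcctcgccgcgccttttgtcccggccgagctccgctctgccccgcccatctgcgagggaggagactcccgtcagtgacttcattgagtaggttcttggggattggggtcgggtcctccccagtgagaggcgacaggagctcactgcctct

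The search covered both strands from 250 bases before to 50 after each start, and 38 of the 41 DNAJ genes had a sequence in the table (DNAJC1, DNAJC22 and DNAJC24 did not). The element of 3 units was present in DNAJA1, from base 4 to base 16 after the start, and in DNAJB6, from base -131 to base -119. It was present in 0.608% of all 27305 genes in the table and in 0.49% of all promoters. A pair of units in either arrangement was present in 16.2% of all genes (13.5% of promoters) and in 4 of the 11 increased members (DNAJA1, DNAJB1, DNAJB4 and DNAJB6). It was present in 0 of the 4 decreased members, in 2 of the 18 members with a sequence that did not pass the test (DNAJC6 and DNAJC15), and in 2 of the 5 untested members (DNAJA4 and DNAJB7). DNAJB1 has other RefSeq starts, of which 1 also holds a pair, and DNAJB4 has a second start, which holds none. For the ER members, the ER stress element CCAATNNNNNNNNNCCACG was in 0.0916% of all genes and in no DNAJ gene, and the core of the unfolded protein response element, TGACGTGG, was in 0.927% of all genes and in DNAJC10 alone, which did not pass the test. A match describes letters only and does not show binding, and the absence of a match applies only to this window.

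DNAJA1, the main class A partner of cytosolic HSP70, was the most counted member (chromosome 9 from 33025273 to 33039907 of GRCh38, with 9 exons in its canonical transcript). Its level was 571, 516, 435, 526 and 480 CPM in DMSO replicates 1 to 5 and 1573, 1499, 1530, 1550 and 1438 CPM in SFN. The lowest SFN library thus lay far above the highest DMSO library. The mean rose from 506 ± 51.2 to 1518 ± 52.3 CPM (SD, n = 5 each), a 3.0-fold change (log2FC = 1.59 ± 0.11 SE, edgeR QL adjusted p = 1.8e-06), and the log2 value was 1.63 without DMSO replicate 1. The other class A members behaved differently. DNAJA2, a second general partner of cytosolic HSP70, was at 153 ± 5.77 CPM in DMSO and 168 ± 7.40 CPM in SFN and did not pass the test (log2FC 0.14). DNAJA3, the TID1 partner of mitochondrial HSP70, was at 44.6 ± 10.1 and 39 ± 4.17 CPM (log2FC -0.19), and DNAJA4, a heat-inducible relative, had at most 1 count in any library.

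**Figure D2:**
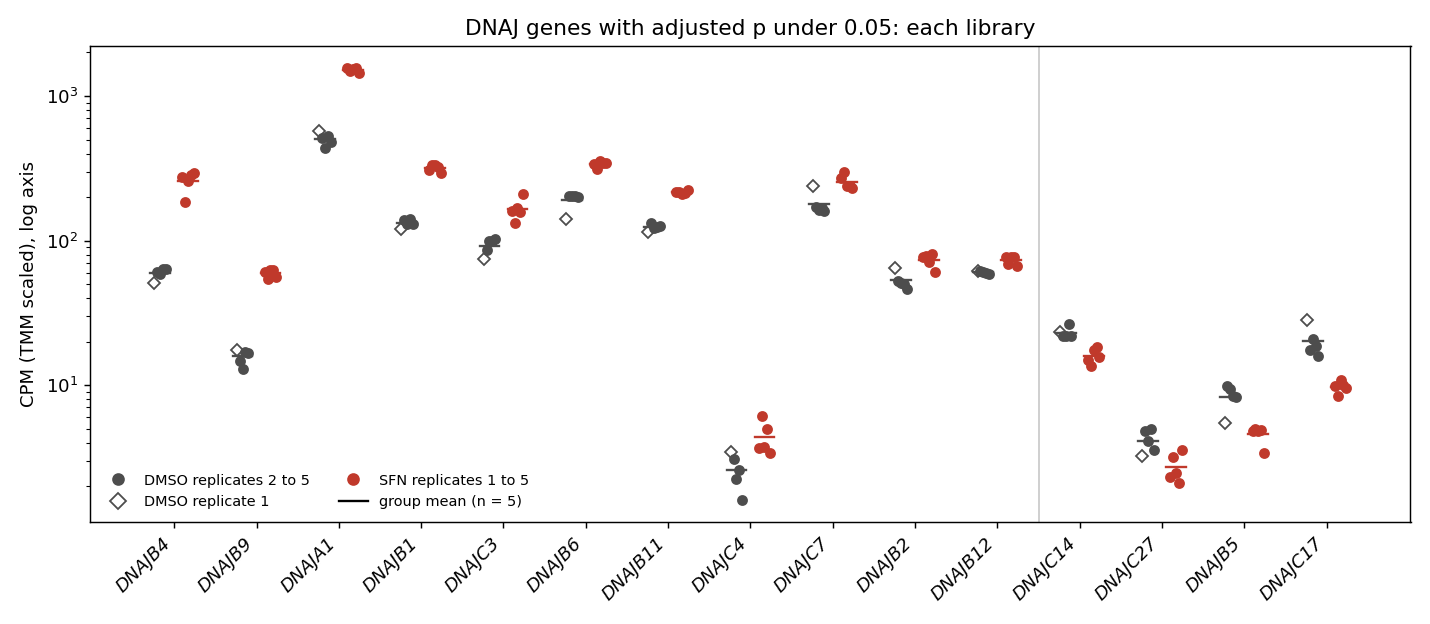
Level of each of the 15 DNAJ genes with an adjusted p under 0.05, in CPM on a log axis, with a point for each of the 5 DMSO and 5 SFN libraries. DNAJA1, DNAJB1, DNAJB4 and DNAJB9 show the largest fold differences between group means among the increased genes, and DNAJC17 and DNAJB5 the largest among the decreased ones.

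Class B held the largest change of the family, in DNAJB4, the HLJ1 protein and a close relative of DNAJB1 (chromosome 1 from 77979175 to 78017964). DNAJB4 was at 50.8, 60.8, 59.1, 63.2 and 64.0 CPM in DMSO replicates 1 to 5 and at 277, 184, 256, 282 and 293 CPM in SFN. The groups lay far apart, and SFN replicate 2 was the lowest of the treated libraries. The mean rose from 59.6 ± 5.28 to 259 ± 43.8 CPM (SD, n = 5), a 4.34-fold change (log2FC = 2.12 ± 0.14 SE, edgeR QL adjusted p = 1.7e-06), and the log2 value was 2.06 without DMSO replicate 1. DNAJB1 itself, the HSP40 of the classical heat shock response (chromosome 19 from 14514769 to 14560391), was at 119.9, 139.7, 131, 140.2 and 129 CPM in DMSO and 308, 333, 334, 325 and 293 CPM in SFN. No library of one group reached the other. It rose from 132 ± 8.39 to 319 ± 17.6 CPM, or 2.41-fold (log2FC = 1.27 ± 0.09 SE, edgeR QL adjusted p = 3.3e-06, and 1.23 on the log2 scale without DMSO replicate 1).

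DNAJB5, the other close relative of DNAJB1, moved the opposite way. This gene (chromosome 9 from 34989641 to 34998900) was at 5.48, 9.80, 9.34, 8.37 and 8.29 CPM in DMSO and 4.83, 5.00, 4.84, 4.86 and 3.39 CPM in SFN. Every SFN library was below every DMSO library, although DMSO replicate 1 came close to the treated ones. Its mean decreased from 8.25 ± 1.68 to 4.58 ± 0.672 CPM (SD, n = 5, log2FC = -0.85 ± 0.18 SE, edgeR QL adjusted p = 0.0053), and the log2 value was -0.97 without DMSO replicate 1.

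The remaining cytosolic members of class B handle aggregation-prone clients. DNAJB6, which suppresses aggregation of polyglutamine proteins, was at 142, 203, 202, 205 and 199.9 CPM in DMSO and 340.5, 311, 354, 343 and 345 CPM in SFN. The groups did not overlap, and DMSO replicate 1 was the lowest library. DNAJB6 rose from 190.3 ± 27.2 to 339 ± 16.4 CPM (SD, n = 5, log2FC = 0.83 ± 0.12 SE, edgeR QL adjusted p = 3.8e-04), and by 0.74 on the log2 scale without that library. DNAJB2, which binds ubiquitin and passes clients to the proteasome, rose from 53.0 ± 7.06 to 73.6 ± 7.97 CPM (log2FC = 0.47 ± 0.12 SE, edgeR QL adjusted p = 0.014, and 0.55 on the log2 scale without DMSO replicate 1). Here the groups touched, since SFN replicate 5, at 60.7 CPM, was below DMSO replicate 1, at 65.0 CPM. DNAJC7, a class C protein whose TPR repeats link HSP70 to HSP90, was at 238, 171, 163, 168 and 161 CPM in DMSO and 269.6, 296, 238, 237 and 232 CPM in SFN, so that DMSO replicate 1 lay within the SFN range. It rose by 0.50 on the log2 scale (SE 0.13, edgeR QL adjusted p = 0.018), but not past the threshold without DMSO replicate 2, 4 or 5, and by 0.61 without DMSO replicate 1. The end of its transcript overlaps CNP on the opposite strand, and the use of strand in counting is not given in the sources used here, so its counts may hold reads of CNP. CNP had 9582 counts over all libraries against 33946 for DNAJC7. Over the 9 tested members of the cytosol, 6 were increased (66.7%) and 1 decreased (11.1%), with a median log2FC of 0.50. Of all genes tested, 9.07% were increased and 13.9% decreased, so the single decrease is near the general share. Without DMSO replicate 1 the counts were the same and the median was 0.61, against 22.5% and 23.5% of all genes.

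The members of the ER, some of which work with the HSP70 protein HSPA5, were led by DNAJB9 (chromosome 7 from 108569867 to 108574850). Its product is the ERdj4 protein, which represses the stress sensor IRE1. DNAJB9 was at 17.4, 14.7, 13.0, 17.0 and 16.8 CPM in DMSO replicates 1 to 5 and 60.7, 54.4, 63.0, 62.8 and 56.1 CPM in SFN. The groups were well separated, with little spread in either. Its mean rose 3.76-fold, from 15.8 ± 1.86 to 59.4 ± 3.91 CPM (SD, n = 5, log2FC = 1.91 ± 0.11 SE, edgeR QL adjusted p = 8.0e-07), and the log2 value was 1.95 without DMSO replicate 1. DNAJB11, or ERdj3, which binds unfolded proteins in the ER lumen, was at 114, 133, 122, 124 and 126 CPM in DMSO and 216, 217, 209, 213 and 223 CPM in SFN. It had the tightest treated group of these genes by SD relative to the mean and rose from 124 ± 6.72 to 215.5 ± 5.10 CPM (log2FC = 0.80 ± 0.09 SE, edgeR QL adjusted p = 5.4e-05, and 0.77 on the log2 scale without DMSO replicate 1).

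DNAJC3, or P58IPK, a lumenal co-chaperone also described as an inhibitor of eIF2α kinases (chromosome 13 from 95677139 to 95794988), was at 74.4, 86.6, 98.6, 98.9 and 102 CPM in DMSO and 161, 133, 169, 157 and 210.1 CPM in SFN. All treated libraries were above all controls, with SFN replicate 5 the highest. Its mean rose from 92.1 ± 11.5 to 166 ± 28.1 CPM (SD, n = 5, log2FC = 0.85 ± 0.14 SE, edgeR QL adjusted p = 9.4e-04), and by 0.78 on the log2 scale without DMSO replicate 1. DNAJB12, an ER membrane protein of ER-associated degradation, rose from 60.6 ± 1.3 to 73.1 ± 5.10 CPM with no overlap, but its log2FC of 0.27 (SE 0.09, edgeR QL adjusted p = 0.0462) passed the threshold in only 3 of the 10 comparisons with 1 library left out, those without DMSO replicate 1, SFN replicate 2 or SFN replicate 5. DNAJB14, its relative, was at 55.7 ± 6.72 and 65.0 ± 10.9 CPM and did not pass the test (log2FC 0.22).

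DNAJC14, another ER membrane protein, was the decreased member of this compartment. It was at 23.2, 21.7, 21.7, 26.3 and 21.9 CPM in DMSO and 15.0, 13.5, 17.4, 18.4 and 15.6 CPM in SFN, with no overlap. Its mean decreased from 23.0 ± 1.94 to 16.0 ± 1.91 CPM (SD, n = 5, log2FC = -0.52 ± 0.12 SE, edgeR QL adjusted p = 0.0064), with the same log2 value without DMSO replicate 1. Its end overlaps ORMDL2 on the opposite strand, and its counts may hold reads of that gene, which had 1472 counts over all libraries against 3179 for DNAJC14. DNAJC10, the ERdj5 disulfide reductase, was at 277 ± 54.6 CPM in DMSO and 309 ± 36.9 CPM in SFN, DNAJC16 at 25.8 ± 4.04 and 26.9 ± 3.52 CPM, and DNAJC18 at 10.6 ± 1.65 and 9.10 ± 2.20 CPM, none of which passed the test (log2FCs 0.16, 0.06 and -0.22). In all, 4 of the 10 tested ER members were increased and 1 decreased, with a median log2FC of 0.19, where 9.07% of all genes were increased and 13.9% decreased, so the single decrease is near the general share. Without DMSO replicate 1, 5 were increased and 1 decreased, with a median of 0.21, against 22.5% and 23.5% of all genes.

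Of the 4 nuclear members, 0 were increased (0 also at an unadjusted p under 0.05, by DESeq2 and by limma-voom) and 1 was decreased, and without DMSO replicate 1 another, DNAJC8, was increased. Shares over all genes tested were 9.07% increased and 13.9% decreased, and 22.5% and 23.5% without that library. For so few genes, these counts are near the general shares. DNAJC17, a protein associated with the spliceosome (chromosome 15 from 40765161 to 40807478), was at 28.4, 17.5, 20.9, 18.5 and 15.8 CPM in DMSO and 9.84, 8.45, 10.9, 9.99 and 9.60 CPM in SFN. Every treated library was below every control, and DMSO replicate 1 was the highest. It decreased from 20.2 ± 4.92 to 9.75 ± 0.869 CPM (SD, n = 5, log2FC = -1.05 ± 0.16 SE, edgeR QL adjusted p = 6.5e-04), and the log2 value was -0.90 without DMSO replicate 1. The end of DNAJC17 overlaps GCHFR on the opposite strand, which had 120 counts over all libraries against 2481 for DNAJC17. DNAJC9, a histone chaperone, was at 321 ± 20.1 and 315.5 ± 20.2 CPM, and DNAJC21, a factor of ribosome biogenesis, was at 131 ± 21.6 and 123 ± 8.09 CPM (log2FCs -0.03 and -0.09, neither past the threshold).

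The mitochondrial members gave no call. Of 5 tested, 0 were increased and 0 decreased by edgeR's QL test, also at an unadjusted p under 0.05, by DESeq2 and by limma-voom, and their median log2FC was -0.19. Shares over all genes tested were 9.07% increased and 13.9% decreased, so 0 of 5 is near them. Another mitochondrial member, DNAJC28, was removed by the low-count filter and is described below. DNAJC19, part of the import motor of the inner membrane, was at 34.8 ± 23.3 CPM in DMSO and 28.3 ± 3.11 CPM in SFN, and its relative DNAJC15 was at 32.9 ± 9.56 and 36.1 ± 5.21 CPM (log2FCs -0.30 and 0.14). DNAJC11, which helps to organize cristae, was at 117 ± 25.5 and 133 ± 15.3 CPM, and DNAJC30 was at 6.59 ± 1.55 and 5.22 ± 0.748 CPM (log2FCs 0.19 and -0.34). Without DMSO replicate 1 the median was 0.05 and 1 member, DNAJA3, was decreased, where 22.5% of all genes were increased and 23.5% decreased.

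Of the members of vesicles and endosomes, 0 of 3 were increased or decreased, also at an unadjusted p under 0.05, by DESeq2 and by limma-voom, while without DMSO replicate 1 DNAJC6 was decreased. Over all genes tested, 9.07% were increased and 13.9% decreased, and 22.5% and 23.5% without that library. Counts among 3 genes are thus near the general shares. DNAJC5, the cysteine string protein of secretory vesicles, was at 59.7 ± 9.87 CPM in DMSO and 63.3 ± 2.60 CPM in SFN, and DNAJC13, or RME-8, an endosomal sorting protein, was at 175 ± 62.9 and 169 ± 49.6 CPM (log2FCs 0.08 and -0.05). Among the remaining class C genes, DNAJC4, a little-studied membrane protein, was at 3.43, 3.10, 2.24, 2.59 and 1.60 CPM in DMSO and 3.70, 6.13, 3.72, 4.99 and 3.39 CPM in SFN, where SFN replicate 5 lay just below DMSO replicate 1. It rose by 0.75 on the log2 scale (SE 0.24, edgeR QL adjusted p = 0.044), and it passed the threshold in only 2 of the 10 comparisons with 1 library left out, without DMSO replicate 1 or SFN replicate 5. Its end overlaps an unnamed gene on the opposite strand, which had 75 counts over all libraries against 538 for DNAJC4. DNAJC27, a RAB-like GTPase with a J domain, was at 3.24, 4.83, 4.08, 4.94 and 3.55 CPM in DMSO and 2.32, 3.19, 2.46, 2.09 and 3.53 CPM in SFN, so that the groups overlapped. Its log2FC of -0.61 (SE 0.20, edgeR QL adjusted p = 0.05) lay just inside the threshold and likewise passed it only without DMSO replicate 1 or SFN replicate 5. DNAJC22 was at 10.9 ± 5.31 and 8.87 ± 1.13 CPM and DNAJC24, which takes part in diphthamide synthesis, at 15.8 ± 2.50 and 17.1 ± 2.63 CPM (log2FCs -0.29 and 0.11, neither past the threshold).

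**Figure D3:**
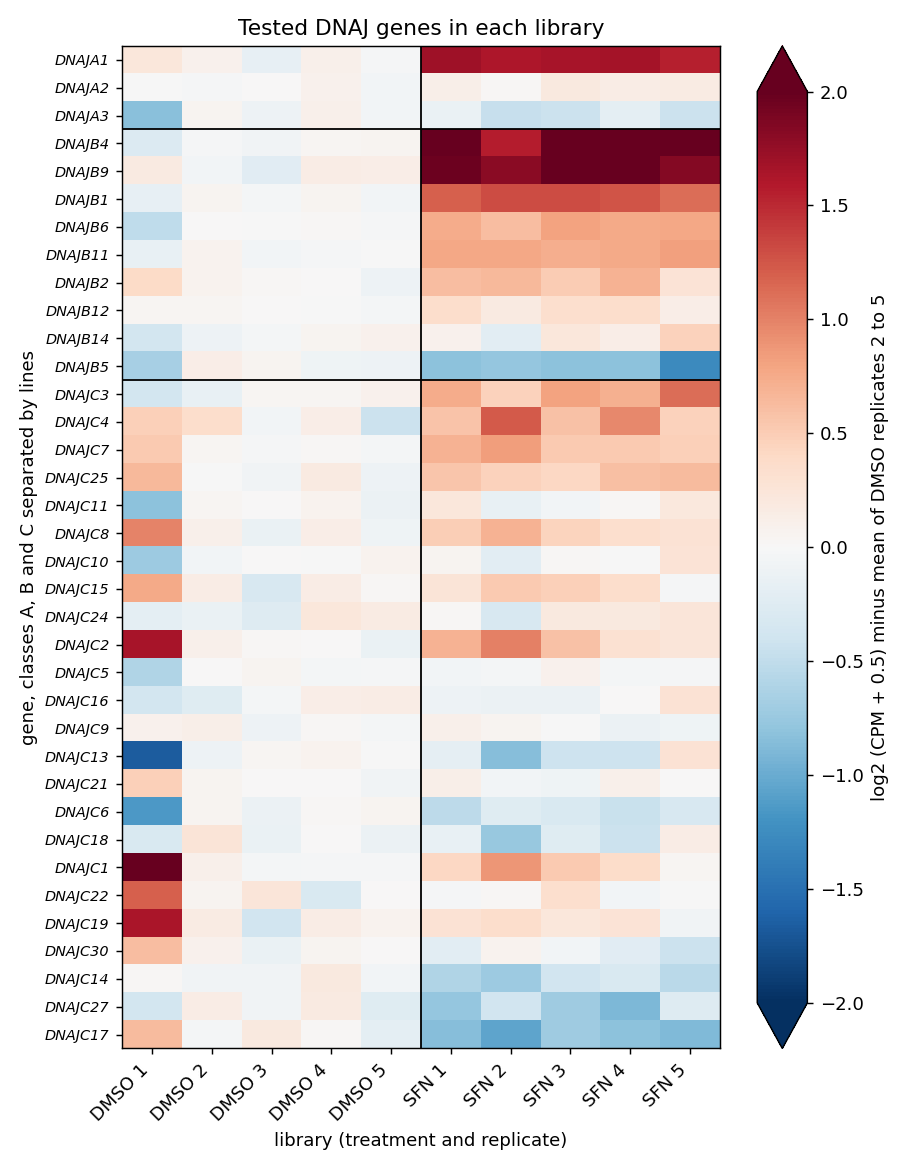
Log2 (CPM + 0.5) of the 36 tested DNAJ genes in each of the 10 libraries, minus the mean of DMSO replicates 2 to 5, with genes in rows by class and libraries in columns. The 5 SFN columns are high for DNAJA1, DNAJB1, DNAJB4 and DNAJB9, and the column of DMSO replicate 1 departs in both directions, from -1.67 for DNAJC13 to 2.03 for DNAJC1.

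The calls of 6 members turned on DMSO replicate 1. DNAJC2, or MPP11, part of the ribosome-associated complex, was at 338 CPM in DMSO replicate 1, at 97.7 to 116 CPM in the other DMSO libraries and at 175, 218, 162, 134 and 127 CPM in SFN. The SFN libraries were thus above 4 of the controls and below the fifth. Its log2FC was 0.09 with that library and 0.59 without it (edgeR QL adjusted p = 0.0030, and 0.0013 to 1.0 over 18 alternative settings). The end of DNAJC2 overlaps an exon of PMPCB on the opposite strand, and its counts may hold reads of that gene. PMPCB had 9036 counts over all libraries against 24802 for DNAJC2. DNAJC1, or ERdj1, which binds ribosomes at the ER membrane, was at 147 CPM in DMSO replicate 1, at 34.4 to 38 CPM in the other controls and at 36.3 to 65.7 CPM in SFN. Its log2FC went from -0.23 to 0.46 without that library (edgeR QL adjusted p = 0.012, and 0.010 to 0.93 over the alternatives).

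DNAJC8, a spliceosome-associated protein, was at 660.3 CPM in DMSO replicate 1, at 302 to 363 CPM in the other controls and at 405 to 537 CPM in SFN, and DNAJC25 was at 32.4, at 19.1 to 23.4 and at 27.6 to 32.3 CPM, respectively. Their log2FCs were 0.19 and 0.39 with that library and 0.45 and 0.54 without it (edgeR QL adjusted p = 0.0019 and 5.0e-04, with 0.0011 to 0.78 and 1.8e-04 to 0.19 over the alternatives). In DNAJA3 and in DNAJC6, the auxilin that uncoats clathrin vesicles with HSP70, the same library was low instead. DNAJA3 was at 27.2 CPM there, at 45.3 to 52.4 CPM in the other controls and at 35.5 to 44.3 CPM in SFN, and DNAJC6 was at 12.8, at 26.7 to 30 and at 19.9 to 24.3 CPM. Their log2FCs were -0.19 and -0.20 with that library and -0.33 and -0.38 without it (edgeR QL adjusted p = 0.012 and 0.0042, with 0.012 to 0.68 and 0.0019 to 0.85 over the alternatives).

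The departure of DMSO replicate 1 went with transcript length. Across the 36 tested members, which share these libraries, the Spearman correlation of the canonical transcript length with the log2 difference between DMSO replicate 1 and the mean of the other controls was -0.49, and across the 13324 tested genes with a known length it was -0.52. Length correlated with the log2FC by -0.28 across the members and -0.16 across all genes, and without DMSO replicate 1 by -0.51 and -0.35. The median length was 2700 bases in class A, 2651 in class B and 3488 in class C, against 3173 over all genes tested. The median log2FC of these classes was 0.14, 0.80 and 0.02, over 3, 9 and 24 tested genes. The part of length in the calls was not tested.

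**Figure D4:**
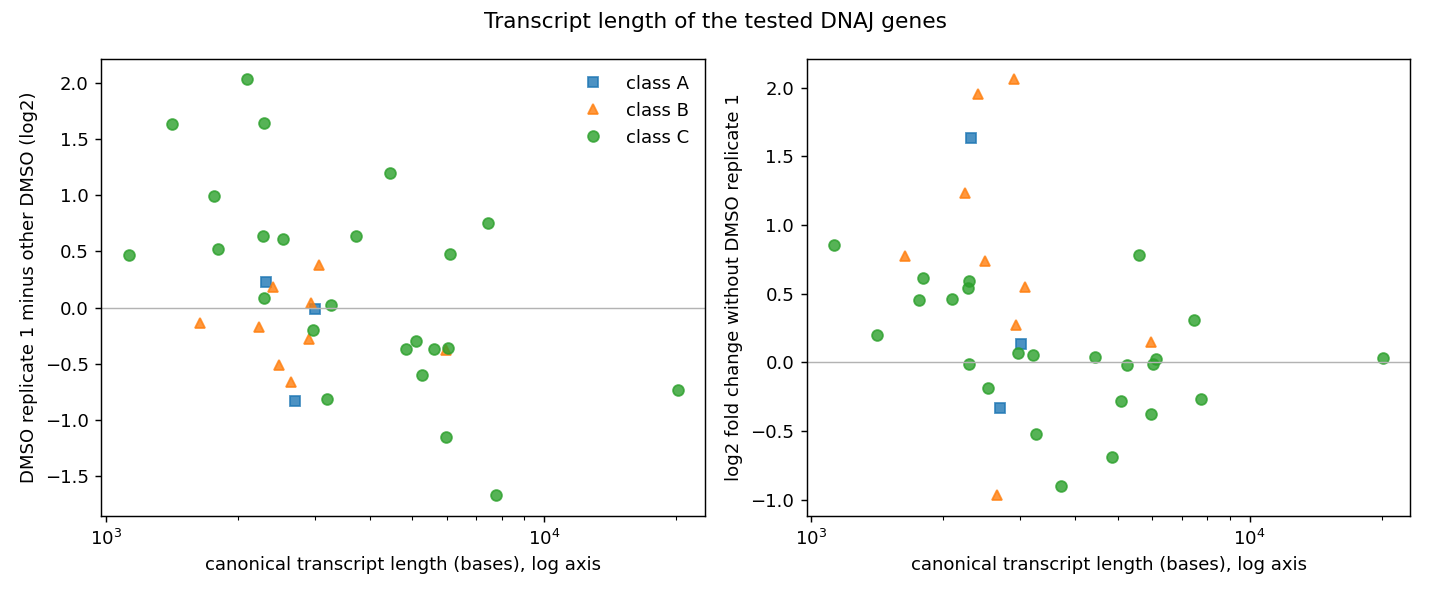
Canonical transcript length of the 36 tested DNAJ genes in bases, on a log axis, with a point per gene by class. The left panel shows the log2 difference between DMSO replicate 1 and the other DMSO libraries. The right panel shows the log2FC of SFN over DMSO without DMSO replicate 1. The extremes in DMSO replicate 1 were DNAJC1 (2100 bases), which was high, and DNAJC13 (7754 bases), which was low, with much scatter between them, as for DNAJC15 (7459 bases), at a log2 difference of 0.75, and DNAJB6 (2489 bases), at -0.51.

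The low-count filter removed 5 members, DNAJA4, DNAJB7, DNAJB13, DNAJC12 and DNAJC28. DNAJA4 had 0 to 1 counts, DNAJB7 0 to 3, DNAJB13 0 to 2 and DNAJC12 0 to 6 in any library, and a count of 0 allows up to 3 counts, or 0.136 to 0.258 CPM in these libraries, as counting error only. DNAJC28, a little-studied mitochondrial gene, had 12 to 17 counts in the DMSO libraries and 2 to 6 in the SFN libraries, that is 0.881 ± 0.191 and 0.280 ± 0.0926 CPM (SD, n = 5) with no overlap. When no filter on low counts was applied, its log2FC was -1.62 (SE 0.45, edgeR QL adjusted p = 0.023 over 28380 genes). The 5 annotated DNAJ pseudogenes in the table had at most 18 counts in a library, and how reads that match both a pseudogene and its parent gene were assigned is not given in the sources used here. Of the tested members, 9 had an exon of another gene on the opposite strand within the last 500 bases of the transcript, where 3′-end reads fall.

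Genes that work with the DNAJ proteins were counted from lists for each role. Of 11 tested HSP70 chaperones, which the J domain activates, 8 were increased (72.7%) and 1 decreased (9.09%), with a median log2FC of 0.90. For these and the exchange factors below, the shares of all genes tested were 9.07% increased and 13.9% decreased. The largest increases were those of HSPA6 (log2FC = 6.28 ± 0.22 SE), HSPA1B (4.34 ± 0.12) and HSPA1A (3.84 ± 0.15). The last 2 are near-identical copies whose separate values are uncertain. HSPA6 was at 0.558 ± 0.169 CPM in DMSO and 44.6 ± 8.46 CPM in SFN, so the size of its change rests on a control level near the floor. The decreased gene was HSPA12A, a distant relative (log2FC = -0.46 ± 0.13 SE). Of 13 nucleotide exchange factors, which release ADP and client from HSP70, 5 were increased and 0 decreased (0 decreased also at an unadjusted p under 0.05, by DESeq2 and by limma-voom), with a median of 0.27. They were BAG3 (2.52 ± 0.10), HSPH1 (1.95 ± 0.10), GRPEL2 (1.05 ± 0.09), HSPA4 (0.77 ± 0.11) and HSPA4L (0.54 ± 0.16), all as log2FCs. By limma-voom, 6 HSP70 genes were increased and 1 decreased. Without DMSO replicate 1, 8 of the 11 HSP70 genes were increased (72.7%) and 2 decreased (18.2%), and 8 of the 13 exchange factors were increased (61.5%) and 2 decreased (15.4%), where 22.5% of all genes were increased and 23.5% decreased.

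Of 5 other co-chaperones that bind HSP70, 2 were increased and 0 decreased (0 decreased also at an unadjusted p under 0.05, by DESeq2 and by limma-voom), namely STIP1 (log2FC = 0.80 ± 0.12 SE) and ST13 (0.51 ± 0.09), which assist the passage of clients to HSP90 and the holding of clients by HSP70. TTC1 was increased as well without DMSO replicate 1 (log2FC 0.24). Of all genes tested, 9.07% were increased and 13.9% decreased, and 22.5% and 23.5% without that library. Of 3 other J-domain proteins without a DNAJ symbol, only SEC63, a component of the ER translocon, was increased (log2FC = 0.35 ± 0.09 SE, edgeR QL adjusted p = 0.015), and GAK and HSCB did not pass the test. By limma-voom 0 of the 3 were increased, and without DMSO replicate 1 HSCB was increased too (log2FC 0.79). Of the 3 tested heat shock factors, HSF1, HSF2 and HSF4, 0 were increased and 0 decreased, also at an unadjusted p under 0.05, by DESeq2, by limma-voom and without DMSO replicate 1, with log2FCs of 0.10, -0.12 and -0.13. The counts measure mRNA, and the activity of these factors was not measured here.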

How the data were processed

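RNA from RPE-1 cells given DMSO or SFN (5 replicates each) was sequenced as Lexogen QuantSeq 3′ libraries and processed by the authors on the Bluebee platform. The submitters' processing notes name FastQC, STAR, featureCounts and edgeR with hg38/GRCh38, and strand or UMI use in counting is not given in the sources used here. What the authors deposited are unnormalized counts for each Ensembl gene and replicate. The authors' own test, a dream mixed model for repeated measures, was not run.

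Here, groups were taken from the labels. Genes were filtered with filterByExpr, scaled by TMM and compared with glmQLFit and glmQLFTest in edgeR 4.0.16 (R 4.3.3), with Benjamini-Hochberg adjustment over 13378 genes. CPM are counts scaled by TMM to a common library size, and standard errors (SE) were obtained by dividing |log2FC| by the square root of F. Replicates differed by more than sampling noise (chi-square per degree of freedom 3.70 to 279.8). Alternatives were RLE and total-count scaling, limma-voom with quantile normalization (limma 3.58.1), DESeq2 1.42.0, other count filters, a replicate block, leaving out each library and, chosen after seeing the data, leaving out DMSO replicate 1 and SFN replicate 2 together. The edgeR, DESeq2 and limma-voom fits were run on simulated counts, but the other alternatives were not. Positions are from GENCODE 44 (GRCh38) and promoters from RefSeq (GRCh38.p14). Roles, compartments and partner lists were written from general knowledge. A gene of the list of J-domain proteins without a DNAJ symbol is not reported here. Members and lists were chosen with earlier results of these data known. Members named with statistics are those with an adjusted p under 0.05 or whose call changed when 1 library was left out, and per list at most 3 genes that passed with the largest change. HSPA12A, HSPA4, HSPA4L, HSCB and TTC1 were added after their values were seen.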

Additional observations from a re-analysis of the deposited data

Results flagged for a closer look

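The level of each of the 36 tested DNAJ genes was examined in each group of 5 for a library whose gap to its nearest neighbour exceeded 0.71 of the range of the group (Dixon's criterion, which chance meets in about 1 in 20 groups). Of 72 groups, 19 met it, where 3.6 would by chance, and 15 of the 19 were DMSO replicate 1. That library was low, with the gap as a share of the range, for DNAJA3 (0.72), DNAJB6 (0.92), DNAJC5 (0.85), DNAJC6 (0.81), DNAJC10 (0.80), DNAJC11 (0.75) and DNAJC13 (0.85). It was high for DNAJC1 (0.97), DNAJC2 (0.92), DNAJC7 (0.87), DNAJC8 (0.83), DNAJC19 (0.85), DNAJC21 (0.80), DNAJC22 (0.75) and DNAJC30 (0.75). The largest of these gaps was that of DNAJC1, at 146.7 CPM against 34.4 to 38 CPM in the other controls.

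In SFN, replicate 5 was low for DNAJB5 (0.89), at 3.39 CPM against 4.83 to 5.00 CPM, and high for DNAJC16 (0.73), at 33.0 CPM against 24.7 to 26.9 CPM. Replicate 3 was high for DNAJC22 (0.83), at 10.9 CPM against 8.16 to 8.63 CPM, and for DNAJC5 (0.76), at 67.8 CPM against 61.3 to 62.9 CPM.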

How the results depend on the processing

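DNAJA1, DNAJB1, DNAJB2, DNAJB4, DNAJB6, DNAJB9, DNAJB11, DNAJC3, DNAJC14 and DNAJC17 kept their direction and their call under all 18 alternatives, and DNAJB5 under the 17 in which it was tested. The number of increased DNAJ genes ranged from 8 to 16 and of decreased ones from 2 (at least 5 CPM in 5 libraries) to 6. Over all genes, increases ranged from 819 (total-count scaling) to 3106 (without DMSO replicate 1 and SFN replicate 2). Decreases over all genes ranged from 1452 (at least 5 CPM in 5 libraries) to 3273 (without those 2 libraries). The called genes lost most often were DNAJB12, called in 7 of 18 alternatives, DNAJC4 in 7 of 17, DNAJC27 in 5 of 17 and DNAJC7 in 15 of 18. The number of all genes called, 3076, was 6251 without DMSO replicate 1 and 6379 without it and SFN replicate 2, and it ranged from 2383 to 6251 with 1 library left out. The median of class A was 0.80 with no filter on low counts, where DNAJA4 entered, and that of class C was -0.07 with total-count scaling, which put the median of all genes at -0.11.

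The sign changed for some members that were not called. DNAJC1 was 0.06 under limma-voom, and without DMSO replicate 1 and SFN replicate 2 together it was 0.35, DNAJC19 0.18, DNAJC21 0.04, DNAJC22 0.06 and DNAJC5 -0.01 on the log2 scale. With total-count scaling DNAJC16 was -0.03 and DNAJC5 -0.02. With 1 library left out, the log2 fold change ranged from -0.37 to 0.46 for DNAJC1, from -0.27 to 0.06 for DNAJC13, from -0.02 to 0.12 for DNAJC16, from -0.46 to 0.20 for DNAJC19, from -0.04 to 0.59 for DNAJC2, from -0.13 to 0.02 for DNAJC21, from -0.42 to 0.04 for DNAJC22, from -0.02 to 0.12 for DNAJC5 and from -0.06 to 0.00 for DNAJC9. The cause of these changes was not tested.

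The labels do not say whether a replicate number marks a shared day or culture, and the study's methods mention repeated measures without defining them. Libraries with the same number were treated as unpaired, with correlations of their deviations from the group means of 0.050, -0.33, -0.076, 0.045 and 0.56. Of the DMSO replicates, only replicate 5 correlated best with the SFN replicate of its own number. SFN replicate 5 was also the best partner of DMSO replicates 2, 3 and 4, so that match is not particular to the number. With the replicate number as a block, 10 DNAJ genes were increased and 3 decreased, where 911 of all 13378 genes tested were increased and 1530 decreased. In that fit DNAJB12 (edgeR QL adjusted p = 0.13) and DNAJC27 (edgeR QL adjusted p = 0.10) were not called, and DNAJC1 (0.06) and DNAJC13 (0.00) changed sign on the log2 scale. Of the partner genes, those called by edgeR without the block and lost with it included SEC63 and HSPA12A, whose lists then had 0 increased and 0 decreased genes, respectively. Depth limits the genes with a mean under 5 CPM in both groups, DNAJC4, DNAJC27 and the untested members, where counting error is a large part of the spread. It also limits DNAJB5, whose mean was under 5 CPM in SFN only (4.58 CPM, with 48 to 81 counts).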
